A study of Homo sapiens with 55 samples.

Results

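Retained-intron events whose intron was at most 150 nt long were followed through RNA-seq of human K562 cells, an established leukaemia line, and 293T cells, a line of embryonic kidney origin. An event belonged to this group when it was listed as a retained intron and the span between the ends of its splice junction was at most 150 nt, and 2159 of the 6084 retained-intron events among 110818 splicing events of every kind did so. The value of an event is its spliced fraction, the share of its transcripts from which the intron had been removed, given here in percent, so that a lower value is more retention. Of the longer retained introns, 3143 were over 150 and up to 1000 nt and 782 were over 1000 nt.

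The study asked what loss of GPATCH8 does to splicing in cells with and without cancer mutations of the splicing machinery. The sgGPATCH8 and sgSUGP1 cells carried CRISPR guides against GPATCH8 or SUGP1, both G-patch proteins, and the control cells carried sgRenilla, a guide against a luciferase that human cells lack. Libraries fell into 4 panels. The SRSF2 panel was K562 cells that overexpressed SRSF2 P95H with sgGPATCH8, P95H with sgRenilla, wild-type (WT) SRSF2 with sgGPATCH8 or WT with sgRenilla, with 3 libraries each. The U2AF1 panel had the same 4 groups of 3 K562 libraries with overexpressed U2AF1 S34F or WT. The SF3B1 panel was K562 cells with the K700E mutation knocked in or WT SF3B1, each with 2 sgSUGP1, 2 sgGPATCH8 and 1 sgRenilla library, and each library was the mean of 2 sequencing runs. The 2 libraries per target carry different guide numbers in their names and were treated as replicates. No guide was thus repeated within a genotype of this panel, and its spread mixes guide with library. The 293T panel, with no mutation given in the labels, had 4 sgSUGP1, 4 sgGPATCH8 and 2 sgRenilla libraries, from 2 guides per target. The overexpressing cells still hold their own SRSF2 or U2AF1 gene, as far as the labels say, and the labels do not say whether the knock-in cells were 1 clone or whether guided cells were pooled. Nothing in the labels says that replicates were separate cultures, so p-values measure the spread between these libraries, which may be technical. The files hold fractions of isoforms and no gene levels, so cell line markers and the levels of GPATCH8, SUGP1 and the mutated genes could not be checked, and the reads behind a fraction are unknown.

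In splicing, the U1 particle marks the start of an intron at its GU, U2AF binds the AG at its end and the pyrimidine stretch before it, and SF3B1, a part of the U2 particle, holds the branch point. SRSF2 binds exons near splice sites, and short introns of GC-rich genes are generally recognised as one unit across the intron. P95H is known to change which exon motifs SRSF2 prefers, S34F the base before the AG that U2AF1 prefers, and K700E to make SF3B1 use other branch points and hold SUGP1, its partner there, less well.

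The introns on which the results turn are printed first, so that their sequence can be read beside the values. Sequences come from GENCODE 29 transcripts (GRCh38) that keep the intron, run 5′ to 3′ on the strand of the gene, and carry their first 2 and last 2 bases in capitals. Positions are those of the files, in build hg19. The first set moved with SRSF2 P95H or with loss of GPATCH8 in P95H cells, and lies within coding sequence: RELB at chr19:45537571-45537708 (+), HNRNPM at chr19:8530247-8530363 (+), JMJD7-PLA2G4B at chr15:42127092-42127167 (+), OVGP1 at chr1:111964084-111964186 (-), CHKB at chr22:51018701-51018786 (-) and C2orf49 at chr2:105959432-105959557 (+).
RELB: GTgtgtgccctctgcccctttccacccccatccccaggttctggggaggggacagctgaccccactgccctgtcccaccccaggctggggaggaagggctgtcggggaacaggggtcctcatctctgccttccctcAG
HNRNPM: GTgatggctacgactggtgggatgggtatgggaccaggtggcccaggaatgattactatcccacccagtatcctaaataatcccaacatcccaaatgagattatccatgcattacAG
JMJD7-PLA2G4B: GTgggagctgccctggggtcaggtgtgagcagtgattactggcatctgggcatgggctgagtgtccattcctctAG
OVGP1: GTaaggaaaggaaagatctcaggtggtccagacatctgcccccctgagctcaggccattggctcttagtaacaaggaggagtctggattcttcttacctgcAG
CHKB: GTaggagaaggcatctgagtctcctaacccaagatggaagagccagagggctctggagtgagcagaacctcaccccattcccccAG
C2orf49: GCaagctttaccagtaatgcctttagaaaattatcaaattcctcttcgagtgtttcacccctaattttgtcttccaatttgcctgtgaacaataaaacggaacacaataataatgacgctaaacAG
The C2orf49 intron starts with GC in place of GT, and keeping it or the HNRNPM intron leaves the reading frame open.

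The second set moved the same way with loss of GPATCH8 in several panels: DDX11 at chr12:31256666-31256740 (+), JMJD8 at chr16:733442-733529 (-) and AUP1 at chr2:74754966-74755066 (-), with RPS6KB2 at chr11:67200688-67200810 (+), called in both SRSF2 genotypes and another GC start.
DDX11: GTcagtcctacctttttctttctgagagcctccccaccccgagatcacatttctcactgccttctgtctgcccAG
JMJD8: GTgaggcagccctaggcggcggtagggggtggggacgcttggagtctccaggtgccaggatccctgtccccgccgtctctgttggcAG
AUP1: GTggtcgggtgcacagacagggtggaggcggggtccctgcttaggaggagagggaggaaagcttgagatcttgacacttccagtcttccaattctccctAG
RPS6KB2: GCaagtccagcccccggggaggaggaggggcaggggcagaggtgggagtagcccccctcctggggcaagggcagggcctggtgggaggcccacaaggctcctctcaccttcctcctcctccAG
The third set differed between SF3B1 K700E and WT cells: MAP3K12 at chr12:53880940-53881038 (-), APBB3 at chr5:139941308-139941428 (-) and MXRA8 at chr1:1289613-1289733 (-).
MAP3K12: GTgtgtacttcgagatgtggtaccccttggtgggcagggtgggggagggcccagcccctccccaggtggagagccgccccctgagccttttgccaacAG
APBB3: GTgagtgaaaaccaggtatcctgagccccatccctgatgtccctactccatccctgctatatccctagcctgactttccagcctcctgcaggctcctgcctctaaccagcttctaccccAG
MXRA8: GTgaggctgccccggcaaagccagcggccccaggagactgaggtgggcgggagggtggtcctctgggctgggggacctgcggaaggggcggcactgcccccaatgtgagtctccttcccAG
The last one is the 26-nt intron of XBP1, a transcription factor of the unfolded protein response, at chr22:29192110-29192135 (-). It is known as the intron that the enzyme IRE1 cuts out in the cytoplasm, without the spliceosome. As placed in the annotation it starts with CT and ends with CA, which need not be the bases at the cuts.
XBP1: CTcagactacgtgcacctctgcagCA

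The events were of 2 kinds by length. From 66 to 150 nt there were 1898 events, of which 1745 (91.94%) matched an annotated intron. The 1474 with a value in every library had a median spliced fraction of 86.64%, with quartiles of 57.18 and 94.65%. At 65 nt or less there were 261 events, of which 50 (19.16%) matched. Only 117 of them had a value in every library, with a median of 6.142%. Of the 261, 175 were at most 10 nt long, too short for a spliceosome intron, and 14 of those matched. The step was sharp: the 12 events of 61 to 65 nt with a value in every library had a median of 9.567%, and the 45 of 66 to 70 nt had 80.64%. At the limit of the group, 38 events of 146 to 150 nt with a value in every library had a median of 88.8%. Just outside it, 50 such events of 151 to 155 nt had 87.66%. The longer classes had medians of 83.13% (2421 such events over 150 and up to 1000 nt) and 90.91% (596 over 1000 nt).

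**Figure D1:**
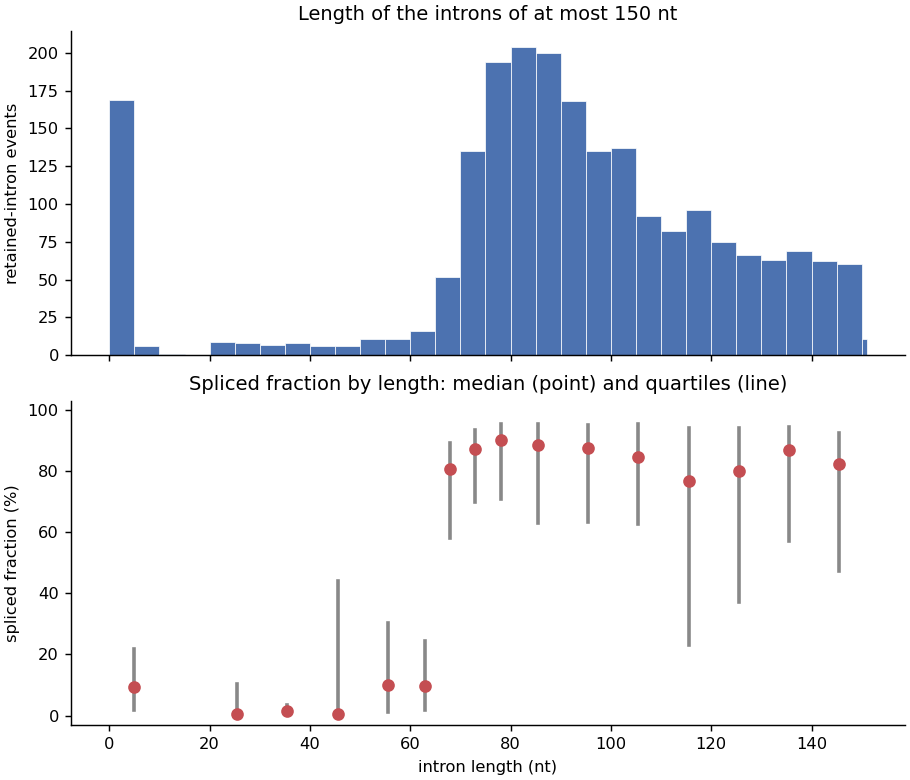
Upper panel, number of retained-intron events by intron length (bins of 5 nt, the last bar holding 150 nt alone). Lower panel, median spliced fraction in percent (points) and quartiles (lines) by length over events with a value in every library, which is 9.567% at 61 to 65 nt and 80.64% at 66 to 70 nt.

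Of all 2159 events, 1795 (83.14%) matched an intron of 1283 named genes, and 321 genes had 2 or more, up to 9 in RHOT2, which encodes a mitochondrial GTPase. Chromosomes 19, 16 and 17 held 270, 222 and 201 events, together 32.1% of the group, against 21.66% of longer retained introns. Of the 1667 introns with a sequence, 1602 began with GT and ended with AG, and 38 were GC-AG. Levels differed by place in the gene: the median was 90.25% for 1127 introns within coding sequence, 39.6% for 61 in 5′ UTRs, 37.44% for 14 in 3′ UTRs and 45.65% for 201 introns of genes or transcripts with no protein product. The 31 GC-AG introns had a median of 14.48%, against 87.12% for 1267 GT-AG introns. Within coding sequence, 142 introns that keep the frame without a stop codon when retained had a median of 78.29% with a lower quartile of 14.92%, whereas the 205 that keep it with a stop codon had 91.6% and a lower quartile of 81.18%. These medians are descriptions with no test, and 320 events (14.82%) share a start or an end with another of the group, so they do not count as separate introns.

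The ends of the range were occupied by very different genes. RPL9, RPS18 and RPL14, which encode ribosomal proteins, NELFE, a subunit of an elongation-pausing factor, and PCBP2, an RNA-binding protein, were spliced at 99 to 100% in all 44 libraries. Another 3 events stood at 0% in every library, 1 of them the 1-nt event of OAZ1. OAZ1, the antizyme of polyamine metabolism, is known for a ribosomal frameshift at which the reading frame skips 1 base, so the annotated 1-nt gap marks a shift in translation. The other pair at 0% were unnamed, of 4 nt beside the OAZ1 event and of 82 nt on chromosome 15. The next lowest were unnamed too, an event of 21 nt on chromosome 1 with a mean of 0.05% and one of 2 nt on chromosome 21 with 0.117%.

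For the tests, an event needed a value in every library of its panel and group means that were not all under 5% or all over 95%. Of the 2159 events, 1402 passed for SF3B1, 1266 for SRSF2, 1270 for U2AF1 and 1350 for 293T libraries, and 1050 passed in every panel. Most of the others had a missing value (2159 events less 1775, 1752, 1704 and 1746 with full values) or were spliced throughout, as 251, 345, 295 and 258 were, in the same order of panels. A call required an adjusted p under 0.05 (limma, Benjamini-Hochberg over all tested events of the panel) and a difference of at least 5 percentage points. The mean over events with full values ranged from 64.65 to 69.33% over the 44 libraries. Replicates of a group differed by a median of 1 to 3 points per intron and had the same value at 13.75 to 23.92% of introns. In the U2AF1 panel the libraries numbered 1 shared a value with the others of their group at 14.03 to 18.31% of introns, against 20.13 to 22.54% between the others. Leaving them out gave 0 calls among short introns there, as with all libraries. With fewer libraries and 0 calls at the start, this cannot show what those libraries contribute.

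**Figure D2:**
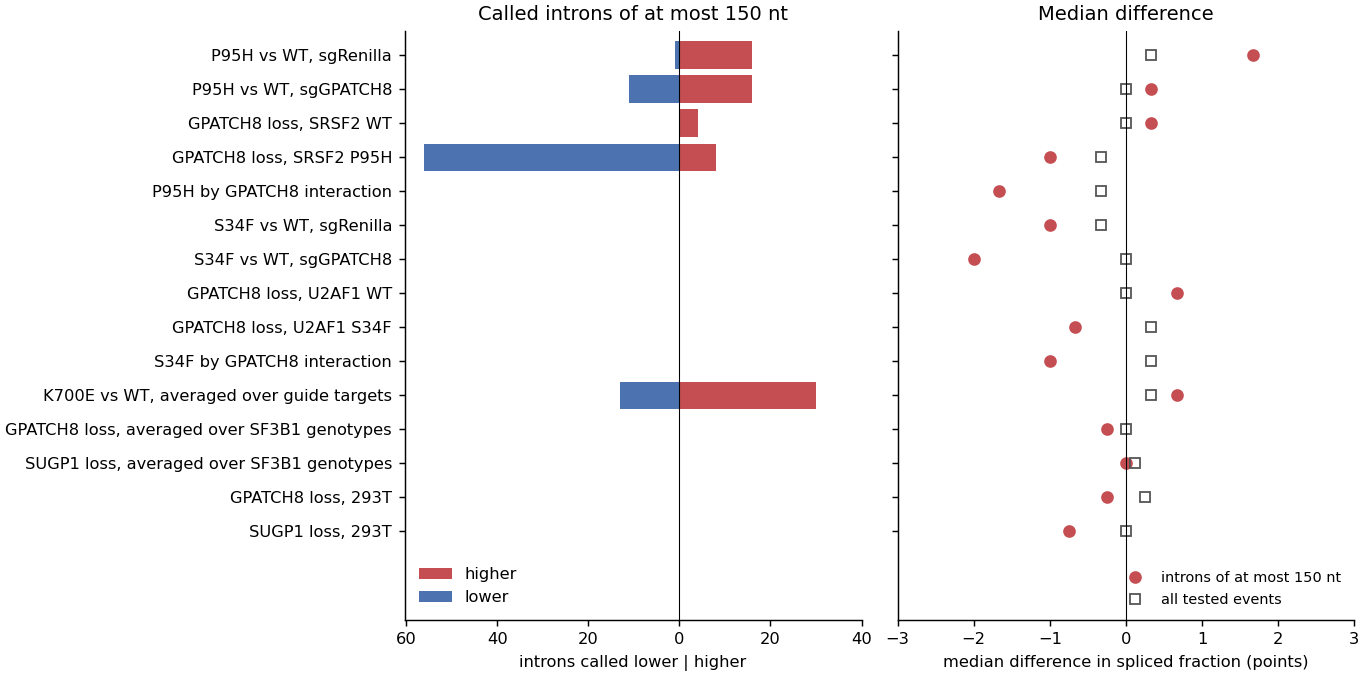
Left, number of introns of at most 150 nt called lower (blue) or higher (red) in each of the 15 comparisons. Right, median difference in percentage points for these introns (red points) and for all tested events (open squares). Calls were made in 5 comparisons, and the highest median is 1.67 points for P95H against WT with sgRenilla.

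Overexpressed SRSF2 P95H came with more complete splicing of short introns. With sgRenilla, 16 were called higher and 1 lower in P95H than in WT libraries, out of 1266 tested. Over all 43963 tested events 1.08% were called, 0.482% higher and 0.598% lower, so the group's 17 calls lean to the higher side. The shift was wider than the calls: 940 of the introns were higher and 272 lower, with a median difference of 1.67 points against 0.33 over all events. The mean over introns was 69.23 ± 0.148% in P95H sgRenilla and 67.39 ± 0.304% in WT sgRenilla libraries (SD, n = 3 each), without overlap. It was not particular to short introns, since the median was 2 points at over 150 and up to 1000 nt and 1.67 points at over 1000 nt.

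RELB, a subunit of the NF-kappaB transcription factor, had 88, 75 and 81% in P95H sgRenilla libraries, against 58, 58 and 59% in WT sgRenilla libraries. The groups were far apart, by 23 points (log2 ratio of spliced to retained 1.64, SE 0.29, limma adjusted p = 0.031). RPL10, a protein of the large ribosomal subunit, had a 5′ UTR intron of 102 nt at 75, 75 and 76% in P95H sgRenilla and 54, 55 and 53% in WT sgRenilla libraries. That difference of 21.33 points had an SD of at most 1 point in either group (log2 ratio 1.35, SE 0.14, limma adjusted p = 0.0056). HNRNPM, itself a splicing regulator, had 53, 55 and 54% in P95H sgRenilla against 41, 41 and 39% in WT sgRenilla libraries (difference 13.67 points, limma adjusted p = 0.02). JMJD7-PLA2G4B, a read-through gene that joins a hydroxylase to a phospholipase, had 72, 77 and 68% in P95H sgRenilla and 54, 56 and 54% in WT sgRenilla libraries (17.67 points, limma adjusted p = 0.048). None of these overlapped between the groups.

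NADK, the kinase that makes NADP, had 43, 51 and 45% in P95H sgRenilla and 28, 28 and 26% in WT sgRenilla libraries, a difference of 19 points (limma adjusted p = 0.019). AC011511.1, a locus with no protein product, had 24, 16 and 29% against 2, 3 and 3%, which is near the floor in WT. LRCH4 and TMEM138 were higher by 12 and 11 points. The other introns called higher lie in PIEZO1, a mechanically gated channel, ISCU, the scaffold for iron-sulphur clusters, AKAP8L, LZTR1, NFKBIA, the inhibitor of NF-kappaB, EPS8L2, AC092073.1 and an unnamed locus, by 6.667 to 10.33 points. The intron called lower was in CDRT1, with 44, 24 and 33% in P95H sgRenilla and 69, 71 and 71% in WT sgRenilla libraries (limma adjusted p = 0.015), and it was also low, at 38, 49 and 40%, in WT sgGPATCH8 libraries. All 17 separated the libraries without overlap, as did 300 of the 1266 tested introns (23.7%) and 17% of all tested events. Leaving out any 1 of the 6 libraries left only 3 to 5 called.

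Among the lists of genes, 13 introns of splicing factor genes were tested and HNRNPM was the call, with 10 higher and 3 lower. Of all 1266 tested short introns 940 were higher and 1.34% were called, so 10 of 13 higher is near the share of the group. The lists are small, and their single calls are descriptions. The list of ribosomal protein and translation genes had 7 tested and RPL10 called. Of 13 tested introns in DNA repair and cohesion genes, 12 were higher and none was called, with a median of 5.333 points. They lie in 9 genes, and some in RAD52 share a splice site, so they are not 13 separate introns. Of 5 in heme and mitochondrial iron genes, ISCU was called, with 85, 86 and 85% in P95H sgRenilla and 74, 75 and 77% in WT sgRenilla libraries. The known SRSF2 and U2AF1 target genes held 2 introns of this length and neither was tested. The exon motifs CCNG and GGNG, with N any base, were searched on the transcript strand in the 30 exon bases on each side, and 79 and 69.9% of 1602 GT-AG introns had them. The median difference was 2 points in 837 tested introns with CCNG and 2 points in 197 without, and 2 points in 735 with GGNG and 1.67 points in 299 without.

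Loss of GPATCH8 in P95H cells moved short introns the other way. Here 56 introns were called lower and 8 higher in P95H sgGPATCH8 than in P95H sgRenilla libraries, 64 of 1266 (5.06%), against 4.84% over all tested events, of which 2.95% were lower and 1.89% higher. The total is thus close to the background. Of the tested introns 786 were lower and 435 higher, with a median of -1 point against -0.33 over all events, and -0.33 and 0 points in the longer classes. Mean levels were 67.86 ± 0.430% in P95H sgGPATCH8 and 69.23 ± 0.148% in P95H sgRenilla libraries (SD, n = 3 each). This comparison shares the P95H sgRenilla libraries with the one above, so the comparisons are not independent. The values of all 4 groups are therefore given for OVGP1, CHKB, C2orf49, HNRNPM, XBP1 and DDIT3. Several others below are given with the P95H groups only.

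OVGP1, an oviduct glycoprotein, showed the largest fall, with 37, 45 and 51% in P95H sgGPATCH8 and 80, 80 and 76% in P95H sgRenilla libraries (difference -34.33 points, log2 ratio -2.17, SE 0.38, limma adjusted p = 0.012). WT libraries had 54, 47 and 71% with sgGPATCH8 and 70, 68 and 55% with sgRenilla. The WT groups overlapped each other, and the 47% lay within the range of P95H sgGPATCH8. In 293T cells the OVGP1 intron went the other way, higher by 19.5 points with sgGPATCH8 and by 21.75 points with sgSUGP1. Neither was called (limma adjusted p = 0.55 and 0.59). CHKB, a choline kinase, had 45, 41 and 39% in P95H sgGPATCH8 and 67, 71 and 62% in P95H sgRenilla libraries (-25 points, limma adjusted p = 0.0033), beside 53, 45 and 52% in WT sgGPATCH8 and 56, 58 and 54% in WT sgRenilla libraries. C2orf49, an intron named here after its values were seen, had 23, 24 and 23% in P95H sgGPATCH8 and 44, 48 and 47% in P95H sgRenilla libraries. Its difference of -23 points had a limma adjusted p of 0.0003. It was lower in WT cells too, at 29, 32 and 30% with sgGPATCH8 and 41, 37 and 37% with sgRenilla, though not called there (limma adjusted p = 0.15). HNRNPM stood at 39, 41 and 39% in P95H sgGPATCH8 against 53, 55 and 54% in P95H sgRenilla libraries (-14.33 points, limma adjusted p = 0.0053), which is the level of the WT libraries, 41, 43 and 39% with sgGPATCH8 and 41, 41 and 39% with sgRenilla.

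**Figure D3:**
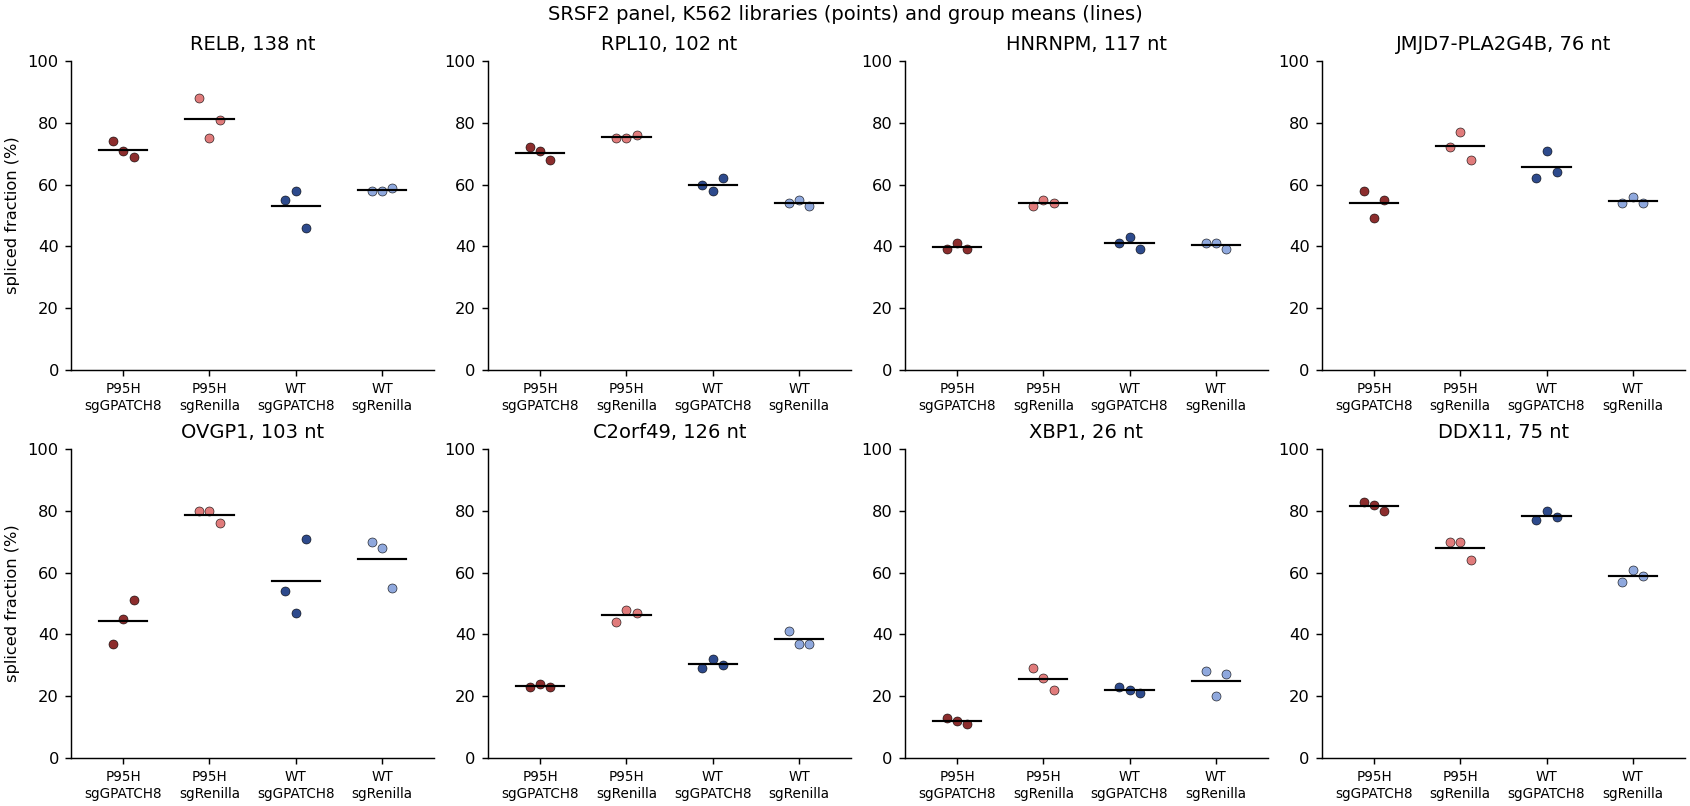
Spliced fraction in percent of 8 introns in the 4 groups of the SRSF2 panel, with a point for each of 3 libraries and a line at the group mean. HNRNPM stands at 53 to 55% in P95H sgRenilla and at 39 to 43% in the other groups, and DDX11 is higher with sgGPATCH8 in both genotypes.

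RAD52, a protein of homologous recombination, held a pair of called introns, of 103 and 106 nt, that share their 5′ splice site. The 103-nt one had 49, 54 and 49% in P95H sgGPATCH8 and 77, 70 and 76% in P95H sgRenilla libraries (limma adjusted p = 0.0097). Its 86-nt intron did not follow, with 33, 48 and 37% against 34, 29 and 28% (limma adjusted p = 0.26). STK19, a nuclear protein of transcription-coupled repair, had 24, 30 and 32% in P95H sgGPATCH8 and 50, 60 and 64% in P95H sgRenilla libraries, and MAMDC4 had 22, 16 and 14% against 56, 43 and 37%. Both were called (limma adjusted p = 0.024 and 0.022). SPATA20 had 13, 34 and 14% in P95H sgGPATCH8 and 51, 39 and 52% in P95H sgRenilla libraries (-27 points, limma adjusted p = 0.036). An unnamed 84-nt intron on chromosome 15 that starts where the JMJD7-PLA2G4B one does had 22, 17 and 19% against 46, 51 and 42% (-27 points, limma adjusted p = 0.014). CENPT, a kinetochore protein, was the gene with 3 called introns, of 100, 104 and 139 nt, which share their 5′ splice site and fell by 16, 14.67 and 7 points. Of the 64 called introns, 16 share a start or an end with another of the group.

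XBP1 was in this set as well, and was chosen for description after its values were seen. Its 26-nt intron was removed in 13, 12 and 11% of transcripts in P95H sgGPATCH8, against 29, 26 and 22% in P95H sgRenilla libraries (-13.67 points, log2 ratio -1.27, SE 0.19, limma adjusted p = 0.0063). WT libraries had 23, 22 and 21% with sgGPATCH8 and 28, 20 and 27% with sgRenilla, so the P95H sgGPATCH8 group stood below the other groups. P95H against WT with sgGPATCH8 was also called (-10 points, limma adjusted p = 0.021). The interaction was not called (adjusted p = 0.18 with limma). DDIT3, a stress-induced transcription factor of the same response, had 59, 65 and 61% at its 5′ UTR intron in P95H sgGPATCH8 and 73, 73 and 70% in P95H sgRenilla libraries (limma adjusted p = 0.031). Its WT libraries had 63, 64 and 63% with sgGPATCH8 and 65, 66 and 63% with sgRenilla, so the P95H sgRenilla group stood above the other groups. In 293T cells XBP1 had 22, 25, 23 and 23% with sgGPATCH8 and 30 and 33% with sgRenilla, a difference of -8.25 points that was not called (limma adjusted p = 0.51). It was as low with sgSUGP1 there, at 20, 27, 22 and 23% (-8.5 points, limma adjusted p = 0.59), so the difference was not particular to sgGPATCH8. In the U2AF1 panel the 4 groups overlapped between 9 and 18%.

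The 8 introns called higher on loss of GPATCH8 in P95H cells included a pair of introns of RPS6KB2, a kinase that phosphorylates ribosomal protein S6 and that the ribosomal list holds by the form of its symbol. Its 123-nt intron had 96, 95 and 95% in P95H sgGPATCH8 and 88, 88 and 89% in P95H sgRenilla libraries. DDX11, a helicase of sister-chromatid cohesion, had 83, 82 and 80% in P95H sgGPATCH8 and 70, 70 and 64% in P95H sgRenilla libraries (13.67 points, limma adjusted p = 0.0087). TRIM22 (62 nt), AP1G2, TMEM191C and a pair of unnamed introns made up the rest. Without 1 of the 6 libraries, 28 to 38 of the 64 were called.

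In WT cells of the same panel loss of GPATCH8 gave 4 calls, all higher, where 0.491% of all tested events were called and 0.207% were higher. They were DDX11, a pair of introns of RPS6KB2 and AC011511.1. DDX11 had 77, 80 and 78% in WT sgGPATCH8 and 57, 61 and 59% in WT sgRenilla libraries, which did not overlap (19.33 points, log2 ratio 1.29, SE 0.17, limma adjusted p = 0.009). The 145-nt RPS6KB2 intron had 84, 78 and 84% in WT sgGPATCH8 and 67, 68 and 63% in WT sgRenilla libraries (16 points, limma adjusted p = 0.037), and the 123-nt one, which shares its end, 94, 94 and 95% against 88, 89 and 85%. The median over introns was 0.33 points. Leaving out 1 library left 0 to 2 calls, 0 without WT sgRenilla replicate 1.

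Whether the effect of GPATCH8 loss differed between P95H and WT cells was tested as an interaction. No short intron was called by limma, and 167 of 1266 had an unadjusted p under 0.05 (148 lower and 19 higher). Over all 43963 tested events 5236 had such a p (2927 lower and 2309 higher), and 0.0614% were called. The median was -1.67 points against -0.33 over all events. The lowest p-values belonged to PIEZO1, AKAP8L and JMJD7-PLA2G4B, with limma adjusted p of 0.053, 0.063 and 0.073. PIEZO1 had 89, 88 and 89% in P95H sgGPATCH8, 93, 93 and 94% in P95H sgRenilla, 89, 89 and 89% in WT sgGPATCH8 and 82, 84 and 83% in WT sgRenilla libraries. AKAP8L, a nuclear scaffold protein, had 20, 21 and 19%, 28, 26 and 27%, 23, 25 and 22%, and 17, 18 and 17% in the same order of groups. In both, loss of GPATCH8 went with a lower value in P95H and a higher value in WT cells, without overlap of libraries.

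With GPATCH8 lost, P95H and WT cells differed at 27 introns, 16 higher and 11 lower in P95H sgGPATCH8, where 4.06% of all tested events were called, 1.73% higher and 2.33% lower. The share among short introns, 2.13%, was below that background, and 639 were higher and 574 lower. RPL10 stayed on the higher side, with 72, 71 and 68% in P95H sgGPATCH8 and 60, 58 and 62% in WT sgGPATCH8 libraries (10.33 points, limma adjusted p = 0.029). ISCU had 85, 86 and 84% against 78, 77 and 77%. AC011511.1 had 29, 30 and 25% in P95H sgGPATCH8 and 8, 11 and 15% in WT sgGPATCH8 libraries (16.67 points, limma adjusted p = 0.021). Higher introns also lay in RFC5, a clamp-loader subunit, MSTO1, PIDD1, PILRB, SGK1, a stress-regulated kinase, DDX55 and COASY, the coenzyme A synthase, by 5.667 to 19.33 points. The lower ones were led by MST1, a serum growth factor, with 50, 35 and 36% in P95H sgGPATCH8 and 74, 74 and 87% in WT sgGPATCH8 libraries (-38 points, limma adjusted p = 0.033).

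ABHD14B, a hydrolase, had the lowest p of the lower introns, with 15, 19 and 22% in P95H sgGPATCH8 and 46, 41 and 44% in WT sgGPATCH8 libraries (-25 points, limma adjusted p = 0.0025). Its P95H sgRenilla libraries had 42, 45 and 39% and its WT sgRenilla libraries 40, 48 and 47%, so P95H sgGPATCH8 stood below the other groups. SPATA20, TLE6, a Groucho-type corepressor, MXD3, a partner of MAX, ACADVL, an enzyme of fatty acid oxidation, OCEL1 and HDAC10, a polyamine deacetylase, differed by -26, -17.33, -15, -11.33, -11 and -11 points. Leaving out 1 library left 5 to 16 calls.

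U2AF1 S34F went with lower values at many short introns, none of which was called in the fit without the replicate number as a term. The fit with that term did call some with sgGPATCH8, as given below with the processing. With sgRenilla, 810 introns were lower and 400 higher in S34F than in WT libraries, with a median of -1 point against -0.33 over all events. In limma 95 of 1270 had an unadjusted p under 0.05 (79 lower). The share was larger over all tested events, at 4051 of 43468 (2488 lower), of which 0.0023% were called. With sgGPATCH8 934 were lower and 301 higher, and the median was -2 points against 0 over all events. In limma 161 had an unadjusted p under 0.05 (138 lower), beside 5059 of all 43468 tested events (2583 lower), of which 0.023% were called. Longer introns showed the same or more, with medians of -1.33 and -1 points (sgRenilla) and -2.33 and -2.33 points (sgGPATCH8) in the classes up to and over 1000 nt. Mean levels were 66.37 ± 0.375% in S34F sgRenilla and 67.62 ± 0.513% in WT sgRenilla libraries (SD, n = 3 each).

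With sgRenilla the direction differed by the base before the final AG, on which S34F is known to act. Introns ending in TAG had 34 higher and 130 lower in S34F (median -1.67 points), those ending in CAG 248 higher and 511 lower (-1 point), those ending in AAG 39 higher and 18 lower (1.33 points), and the 11 ending in GAG 1 higher and 9 lower (-3.33 points). With sgGPATCH8 every class was mostly lower, AAG with 22 higher and 34 lower, and the medians were -4.33 points for GAG, -3.33 for TAG, -2 for CAG and -1 for AAG. These are counts over 170 TAG, 803 CAG, 59 AAG and 11 GAG introns with no test. The intron with the lowest p with sgRenilla was in DENND6B, with 80, 83 and 83% in S34F sgRenilla and 94, 94 and 96% in WT sgRenilla libraries. They did not overlap, but the limma adjusted p was 0.13. ACBD4 had 80, 60 and 61% against 89, 89 and 91% (limma adjusted p = 0.16), and NR4A2, an orphan nuclear receptor, 28, 24 and 19% against 9, 9 and 16% (limma adjusted p = 0.22). With sgGPATCH8, GBA2, a glucosylceramidase, had 24, 17 and 28% in S34F and 48, 53 and 45% in WT libraries, ITIH4 16, 23 and 22% against 54, 55 and 60%, and an unnamed 4-nt event 64, 48 and 83% against 22, 17 and 5%, each with a limma adjusted p of 0.089.

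Loss of GPATCH8 in the U2AF1 panel gave no calls by limma in either genotype, with 52 unadjusted p-values under 0.05 in WT and 77 in S34F cells. Over all 43468 tested events, 2117 in WT and 3038 in S34F cells had such a p, and 0.0322 and 0.0345% were called. EGFL8, a secreted EGF-like protein, was among the 3 lowest p-values in both. It had 53, 56 and 56% in S34F sgGPATCH8 and 32, 40 and 36% in S34F sgRenilla libraries (limma adjusted p = 0.26), and 53, 54 and 52% in WT sgGPATCH8 and 23, 32 and 32% in WT sgRenilla libraries (limma adjusted p = 0.1). FADS1, a fatty acid desaturase, had 43, 50 and 57% in S34F sgGPATCH8 and 19, 13 and 14% in S34F sgRenilla libraries (limma adjusted p = 0.095). AVIL and GOLGA2P5 in WT cells and WBP1 in S34F cells were the others, with limma adjusted p of 0.42, 0.42 and 0.34. For the interaction of S34F and GPATCH8 loss, 45 introns had an unadjusted limma p under 0.05, beside 1911 of all 43468 tested events. Limma called 0 introns, as it did over all tested events (0%), the lowest p belonging to ITIH4, GBA2 and an 80-nt intron of WBP1.

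In the SF3B1 panel, K700E cells differed from WT cells at 43 of 1402 introns, 30 higher and 13 lower, averaged over the guide targets. That is 3.07%, against 3.35% over all tested events, of which 2.13% were higher and 1.22% lower. The median was 0.67 points over short introns and 0.33 over all events, 843 being higher and 538 lower, and it was larger at higher GC content of the intron, at -0.25 points under 50%, 0.67 from 50 to 65% and 1.5 at 65% or more. Of the 43 called, 22 separated all 5 K700E from all 5 WT libraries, as did 100 of the 1402 tested (7.13%) and 6.04% of all tested events. Because a value here is a mean of runs, each intron was also read by run: 41 of the 43 had the same direction in both runs and 30 of them at least 5 points in both. The calls were made on the means of these same runs, so this is a description and no separate check. The same share over all tested introns is not given.

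MAP3K12, a kinase of neuronal stress signalling, had 67.5 and 69.5% in K700E sgSUGP1, 67.5 and 65.5% in K700E sgGPATCH8 and 68% in K700E sgRenilla libraries, against 50.5 and 57.5% in WT sgSUGP1, 16 and 32.5% in WT sgGPATCH8 and 20% in WT sgRenilla libraries. The K700E libraries lay between 65.5 and 69.5% and above every WT library, and WT sgSUGP1 stood above the other WT libraries (34.92 points averaged over targets, log2 ratio 2.18, SE 0.28, limma adjusted p = 0.023). APBB3, an adaptor that binds the amyloid precursor protein, followed the same order, with 70.5 and 68.5%, 62.5 and 61%, and 68.5% in the K700E sgSUGP1, sgGPATCH8 and sgRenilla libraries and 46.5 and 50%, 30 and 30%, and 34.5% in the WT ones (29 points, limma adjusted p = 0.0076). PPOX, an enzyme of heme synthesis and the call among the 4 tested introns of known K700E target genes, had 53 and 47.5%, 43 and 51.5%, and 47% in those K700E libraries and 38 and 40%, 23.5 and 24.5%, and 21% in the WT ones (20.17 points, limma adjusted p = 0.02). DNHD1, of the dynein heavy chain family, had 53 to 66.5% in K700E and 18.5 to 35% in WT libraries.

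MXRA8, a cell-surface receptor for some alphaviruses, was the strongest call in the other direction, with 32.5 and 28% in K700E sgSUGP1, 22 and 21.5% in K700E sgGPATCH8 and 29% in K700E sgRenilla, against 58 and 64.5%, 57 and 60.5%, and 66% in the WT libraries of the same guides (-35 points, log2 ratio -2.11, SE 0.15, limma adjusted p = 0.0076). CCDC24 and TRAPPC2L, a subunit of a vesicle-tethering complex, differed by -23.67 and -18.5 points. In the ribosomal list the 145-nt RPS6KB2 intron was called higher by 7.25 points (limma adjusted p = 0.037). ABTB1, ZNF160 (83 nt) and ZNF692 were higher by 20.08, 15.33 and 15.33 points. The ZNF160 intron differed by 22.2 points in run 1 and by 3.4 points in run 2. RFNG, a glycosyltransferase that modifies Notch, and JMJD7-PLA2G4B were called higher by 14.33 and 14.08 points. Among the named introns were 3 unnamed events of 1, 2 and 4 nt, with differences of -12.33, 25.17 and -6.667 points.

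In WT cells the sgSUGP1 libraries leaned toward K700E at the introns called higher. Both WT sgSUGP1 libraries were above the other 3 WT libraries at 16 of the 30 introns called higher in K700E (53.33%), against 245 of 1402 tested introns (17.48%), and below them at 1, against 9.914%. At the 13 introns called lower they were below at 3 (23.08%) and above at 0, and the WT sgGPATCH8 pair was below at 3 as well. Both WT sgGPATCH8 libraries were above the rest at 3 of the 30 called higher (10%), against 9.058% of tested introns, and below at 7 (23.33%), against 14.69%. The WT libraries are part of the K700E comparison, so this is a description with no test. RFNG had 90.5 and 91.5% in WT sgSUGP1, 74 and 69% in WT sgGPATCH8 and 66.5% in WT sgRenilla libraries, beside 90 to 92.5% in the K700E libraries.

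**Figure D4:**
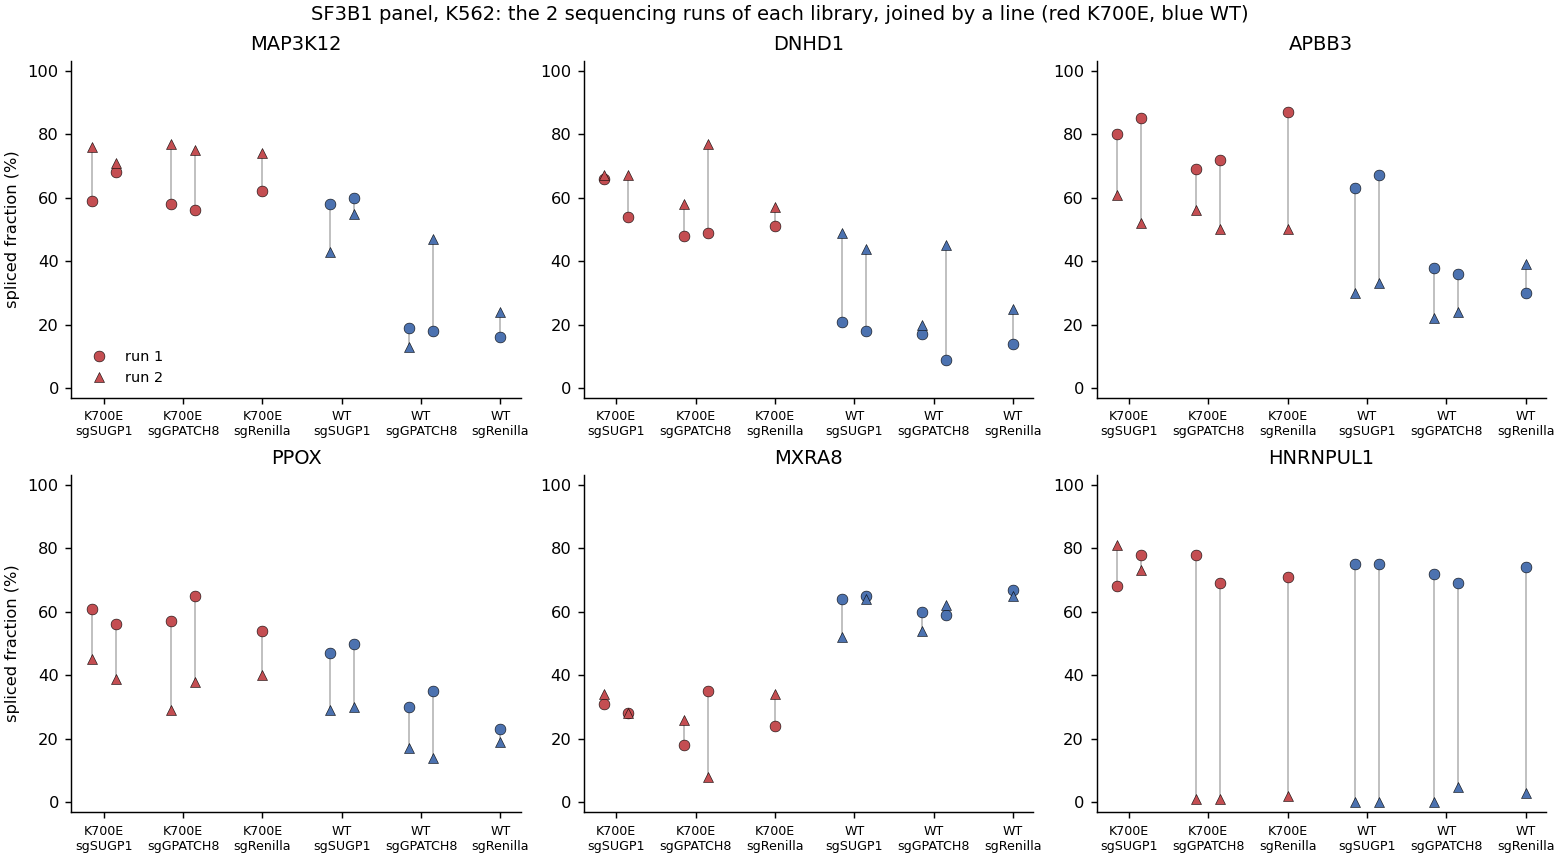
Spliced fraction in percent of 6 introns in the 10 libraries of the SF3B1 panel (red K700E, blue WT), with the 2 sequencing runs of a library as a circle and a triangle joined by a line. MXRA8 is lower in K700E in both runs, while HNRNPUL1 differs by run, at 68 to 78% in run 1 and at 0 to 5% in run 2 for 8 of the libraries.

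The runs did not always give the same value. Of 1874 introns with both runs, 284 (15.15%) differed by 30 points or more in at least 1 library, and 11 of the 43 called ones did. Among these were APBB3, DNHD1, CCDC24, TRAPPC2L and ZNF160 (83 nt), with largest gaps of 37, 36, 39, 34 and 49 points. HNRNPUL1, an RNA-binding protein of the splicing list, was called higher in K700E by 12.08 points (limma adjusted p = 0.036), and rested on run 2 of the K700E sgSUGP1 pair. In run 1 its values were 68 to 78% in all 10 libraries, with means of 72.8% in K700E and 73% in WT. In run 2 they were 81 and 73% in K700E sgSUGP1 and 0 to 5% in the other 8 libraries. Using run 1 alone or run 2 alone, 5 introns were called each, and leaving out 1 library left 3 to 11, the fewest without K700E sgSUGP1 replicate 1.

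Loss of SUGP1, averaged over K700E and WT cells, gave no call by limma among 1402 introns. Of these, 155 had an unadjusted limma p under 0.05, beside 6346 of all 50823 tested events, and 0% of all tested events were called. Loss of GPATCH8 gave none either, with 121 under 0.05, beside 4721 of all tested events, and 0.00984% of all events called. For SUGP1 the lowest p belonged to an unnamed 74-nt intron on chromosome 6, ITGA3, an integrin subunit, and HNRNPUL1, and for GPATCH8 to VPS16, JMJD8 and OS9, each with a limma adjusted p of 0.11. With 1 sgRenilla library per genotype, these comparisons assume that it varies like the other groups. In 293T cells loss of SUGP1 gave 0 of 1350 calls (105 unadjusted p under 0.05 in limma, 0.0428% of all events called) and loss of GPATCH8 also 0 (85 under 0.05, 0.0673% of all events called). The 74-nt intron on chromosome 6 was lowest in p in 293T as well, with 76, 72, 72 and 69% in 293T sgSUGP1 and 91 and 91% in 293T sgRenilla libraries (-18.75 points, limma adjusted p = 0.083), and its difference in the SF3B1 panel was -10.12 points (limma adjusted p = 0.09). For GPATCH8 loss in 293T the lowest p belonged to JMJD8, to TNFRSF10B, a death receptor, with 48, 45, 47 and 46% in sgGPATCH8 and 26 and 30% in sgRenilla libraries (18.5 points, limma adjusted p = 0.16), and to an unnamed 137-nt intron on chromosome 22 (-39 points, limma adjusted p = 0.17). The median over short introns was -0.75 points on loss of SUGP1 and -0.25 on loss of GPATCH8.

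Some introns moved the same way with GPATCH8 loss in panels that share no library. The SF3B1 and 293T libraries carry the same guide numbers in their names, so these panels are not separate by guide. The names in the SRSF2 and U2AF1 panels give no guide number. Using WT cells in the SRSF2 and U2AF1 panels, the average over genotypes in the SF3B1 panel, and 293T, 7 of 1050 introns had an unadjusted p under 0.05 and the same direction in all 4 (0.667%), against 0.553% of 33296 events, so the count itself is near the background. These introns were picked after their values were seen. JMJD8 and AUP1 hold other short introns in the group, and none of those met this rule. DDX11, JMJD8, STX4, a membrane-fusion protein, DGAT1, the last enzyme of triglyceride synthesis, CLN3, a lysosomal membrane protein, and PRC1, which bundles spindle microtubules, were higher with sgGPATCH8, and AUP1, a protein of lipid droplets and of degradation at the endoplasmic reticulum, was lower.

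JMJD8, a protein of the endoplasmic reticulum lumen, had 84, 82, 84 and 79% in 293T sgGPATCH8 and 61 and 63% in 293T sgRenilla libraries (20.25 points, limma adjusted p = 0.13). In the SF3B1 panel it had 85.5 and 85% in K700E sgGPATCH8 against 68.5% in K700E sgRenilla, and 87.5 and 84.5% in WT sgGPATCH8 against 66.5% in WT sgRenilla libraries (limma adjusted p = 0.11). In the U2AF1 WT cells it had 91, 92 and 90% with sgGPATCH8 and 85, 84 and 84% with sgRenilla, and in the SRSF2 WT cells the difference was 8 points. The sgGPATCH8 libraries were above the sgRenilla libraries in every genotype and both lines, while 293T sgSUGP1 libraries, at 64, 64, 60 and 67%, stood at the sgRenilla level.

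AUP1 had 73, 71, 71 and 74% in 293T sgGPATCH8 and 85 and 87% in 293T sgRenilla libraries (-13.75 points, limma adjusted p = 0.2). In U2AF1 S34F cells it had 63, 68 and 69% with sgGPATCH8 and 78, 80 and 78% with sgRenilla, and in U2AF1 WT cells 71, 71 and 70% against 78, 81 and 79%. In SRSF2 P95H cells the difference was called, at -10 points (limma adjusted p = 0.014), and in SRSF2 WT cells it was -9 points (limma adjusted p = 0.082). Again no sgGPATCH8 library overlapped a sgRenilla library of its own genotype. DDX11 had 80, 78, 79 and 78% in 293T sgGPATCH8 and 65 and 71% in 293T sgRenilla libraries. In U2AF1 S34F cells alone the DDX11 groups overlapped, at 81, 75 and 77% with sgGPATCH8 and 78, 60 and 52% with sgRenilla.

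**Figure D5:**
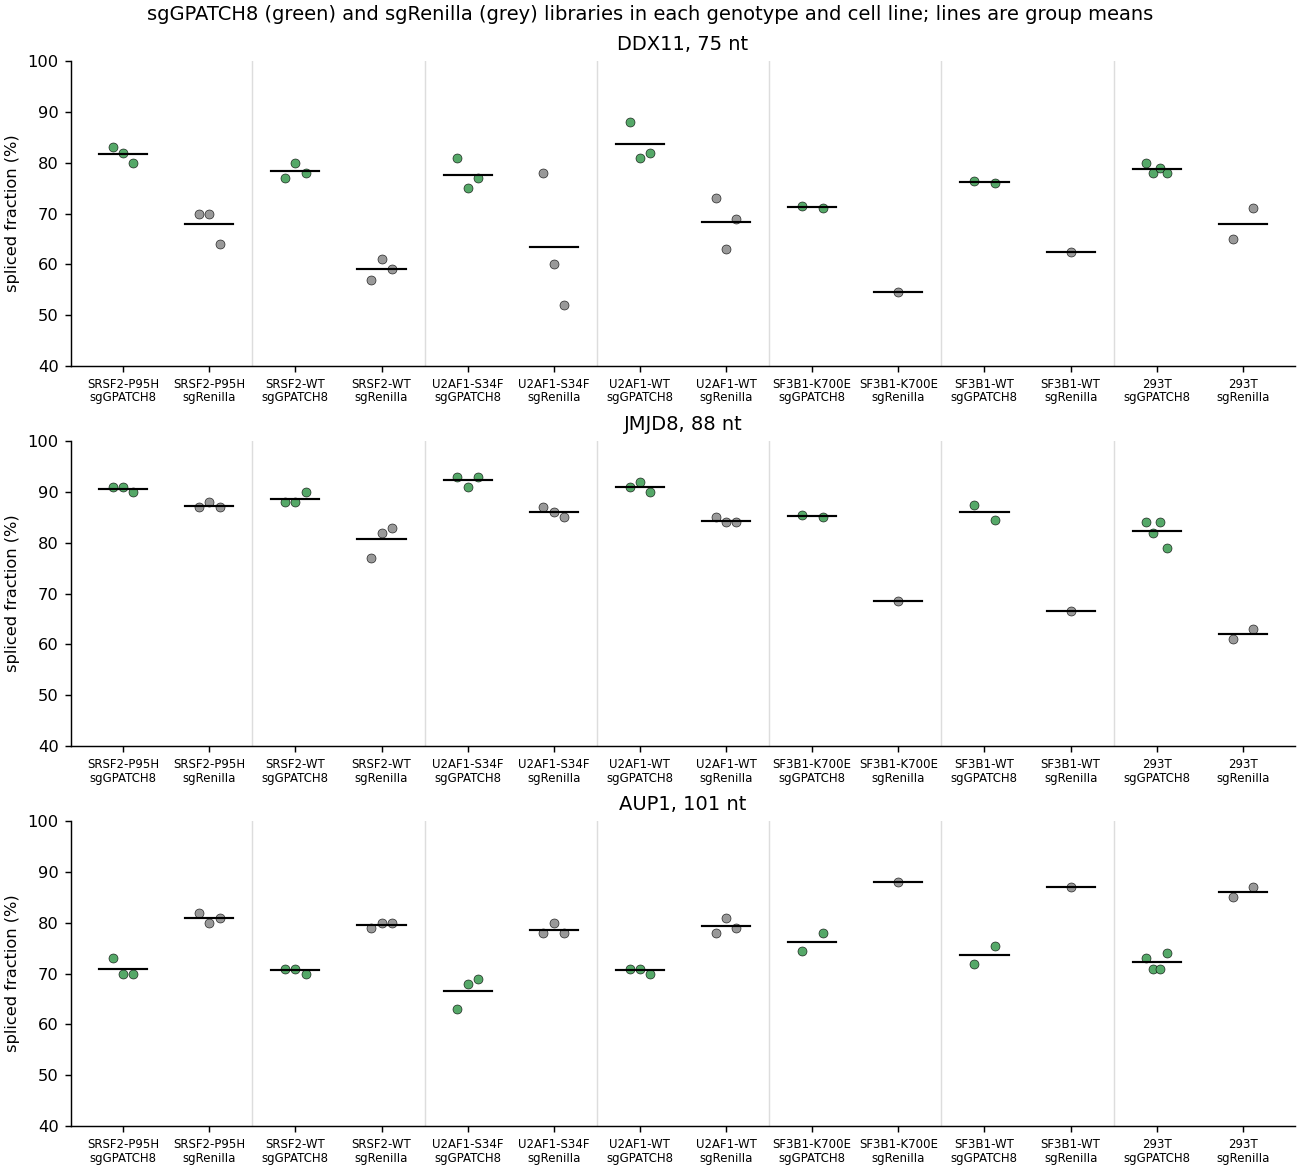
Spliced fraction in percent (axis from 40 to 100%) of the DDX11, JMJD8 and AUP1 introns in sgGPATCH8 (green) and sgRenilla (grey) libraries of each genotype and line, with lines at group means. DDX11 and JMJD8 means are higher and AUP1 means lower with sgGPATCH8 in every genotype and both lines.

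For SUGP1 loss, the SF3B1 panel and 293T share no library, but their sgSUGP1 libraries carry the same guide numbers. They are thus not separate by guide. In both, 19 of 1216 introns (1.56%) had an unadjusted limma p under 0.05 in one direction, 13 higher and 6 lower, against 1.38% of 39912 events. MAP3K12 was among the higher ones. It had 49, 56, 59 and 51% in 293T sgSUGP1 libraries and 41 and 17% in 293T sgRenilla libraries, a wide control range (24.75 points, limma adjusted p = 0.61). RFNG and RGP1, which activates a small GTPase with RIC1, also stood higher with sgSUGP1, by 18.5 and 13.25 points in 293T (RGP1 limma adjusted p = 0.24). E2F4, a cell-cycle transcription factor, was lower, with 64, 57, 65 and 58% in 293T sgSUGP1 and 80 and 83% in 293T sgRenilla libraries (-20.5 points, limma adjusted p = 0.15). PARP2, a DNA-damage polymerase of ADP-ribose, had 76, 79, 77 and 76% against 88 and 87%, without overlap. These too were picked after their values were seen, and no SUGP1 value was called in either panel.

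The 76-nt intron of JMJD7-PLA2G4B was called in 3 comparisons. In the SRSF2 panel it had 58, 49 and 55% in P95H sgGPATCH8, 72, 77 and 68% in P95H sgRenilla, 62, 71 and 64% in WT sgGPATCH8 and 54, 56 and 54% in WT sgRenilla libraries, so that sgGPATCH8 was below sgRenilla in P95H cells (-18.33 points, limma adjusted p = 0.018) and above it in WT cells. In the SF3B1 panel it had 77.5 and 78% in K700E sgSUGP1, 70 and 66% in K700E sgGPATCH8 and 71% in K700E sgRenilla libraries, against 75 and 75.5%, 50 and 43.5%, and 52.5% in the WT libraries of the same guides. WT sgSUGP1 libraries thus lay above the other WT libraries and beside the K700E ones. In 293T cells it had 73, 69, 61 and 65% with sgSUGP1, 53, 47, 46 and 49% with sgGPATCH8, and 46 and 59% with sgRenilla, and sgSUGP1 libraries again stood above the others. In the U2AF1 panel it had 39, 47 and 52% in S34F sgGPATCH8 and 66, 66 and 63% in WT sgGPATCH8 libraries (-19 points, limma adjusted p = 0.17), and 43, 47 and 48% in S34F sgRenilla and 54, 65 and 67% in WT sgRenilla libraries (-16 points, limma adjusted p = 0.29). S34F libraries were thus below WT libraries without overlap, with no call, and GPATCH8 loss made a difference of 0 points in S34F and 3 points in WT cells there. SUGP1 loss was not called at it in either panel (14.75 points in the SF3B1 panel, limma adjusted p = 0.18, and 14.5 points in 293T, limma adjusted p = 0.64).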

How the data were processed

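Per the labels' protocols, polyadenylated RNA was made into strand-specific dUTP libraries and sequenced as paired ends. The authors deposited a fraction (0 to 1, with 2 decimals) for the first isoform of each of 110818 events per panel, 2 of them without coordinates and left out here. TopHat, TopHat2 2.0.8b, Bowtie and RSEM 1.2.4 are named in the submitters' processing notes, with hg19 (GRCh37) as the build. What each did, and how missing values arose, is not stated there. The depth is unknown, so no counting interval is given, and a fraction from few reads weighs as much as one from many. For retained introns the first isoform is the spliced one. The 55 samples appear in 54 columns, since SRSF2 P95H sgGPATCH8 replicate 3 has 1 column for its pair of samples, and averaging the SF3B1 runs left 44 libraries. What the 293T labels WT-1 and WT-2 stand for is not given, so the guide numbers in the column names were used. Each guide entered with its own mean, and the guides of a target had equal weight. The 293T p-values thus leave out the difference between guides.

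Genes were named from GENCODE 29 introns of the same length, at the shift in position between builds that neighbouring long introns gave. Fractions with 0.01 added to each side were turned into log2 ratios of spliced to retained and fitted with limma 3.58.1 (R 4.3.3) with group means and a trended prior variance, all libraries of a panel sharing 1 spread. The 15 comparisons were adjusted by Benjamini-Hochberg over all tested events. The text names up to 8 called introns per direction with the largest difference and no overlap, the 3 lowest p-values where fewer than 3 were called, called introns of splicing factor genes, genes with 3 or more called introns, and the 5 lowest and highest levels. Others are described as picked after their values were seen. So were the printed sequences and the short runs of other called genes given with their range. The group, the lists and the tests were chosen with earlier results of these data known. The scripts were tested on simulated data.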

Additional observations from a re-analysis of the deposited data

How the results depend on the processing

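Counts of called introns moved with the settings. With no filter on group means, P95H against WT with sgRenilla had 27 calls in place of 17, GPATCH8 loss 9 in place of 4 (SRSF2 WT), 7 (SF3B1) and 3 (293T) in place of 0, SUGP1 loss 2 (SF3B1) and 2 (293T) in place of 0, the P95H interaction 10 and S34F with sgGPATCH8 1. An offset of 0.05 gave the P95H interaction 1 call. Requiring 10 points left 11 for P95H with sgRenilla and 2 for GPATCH8 loss in SRSF2 WT cells. Leaving out 1 replicate gave 3 to 5 (P95H with sgRenilla), 5 to 16 (P95H with sgGPATCH8), 0 to 2 (GPATCH8 loss, SRSF2 WT), 28 to 38 (GPATCH8 loss, P95H), 3 to 11 (K700E) and 0 to 1 (S34F with sgGPATCH8, GPATCH8 loss in S34F, S34F interaction). K700E had 5 calls with run 1 alone and 5 with run 2 alone. Of 1239 alternatives for 93 named results, 896 kept direction and side of the threshold, 328 lost the call, 14 gained one and 1 reversed, HNRNPUL1 in K700E with run 1 alone, at -0.67 points. Leaving out a library means fewer samples, and for the other settings the cause was not tested. Added after seeing the data, introns of 66 to 150 nt alone gave 37 calls and introns with runs within 30 points in every library 32 for K700E, in place of 43.

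The labels do not say that a replicate number pairs samples. Deviations of same-numbered libraries correlated at -0.048 to 0.033 in the SRSF2 panel (median 0.002, other pairs -0.004) and at 0.075 to 0.402 in the U2AF1 panel (median 0.132, other pairs -0.146). In the U2AF1 panel 12 of 12 libraries correlated best with their own number, a hint from the data and not from the design. With the replicate block, calls were 3 (P95H with sgRenilla), 12 (P95H with sgGPATCH8), 1 (GPATCH8 loss, SRSF2 WT), 41 (GPATCH8 loss, P95H), 11 (S34F with sgGPATCH8, 2 higher and 9 lower, with 378 in place of 10 over all tested events) and 18 (K700E). Leaving out the 4 U2AF1 libraries numbered 1, added after seeing the data, gave 0 calls in that panel, as did the fit with all its libraries and no block. The unknown depth limits every value, since sampling noise cannot be told apart from other spread.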

Other observations

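Levels of single introns were also set side by side between the lines. Of 1665 short introns with a value in every WT or unmutated sgRenilla library, 1173 were within 5 points between the means of 2 libraries of 293T and 7 of K562, and the median difference was -0.167 points. At 20 points or more, 30 were higher and 55 lower in 293T, and 63 of these did not overlap. Being chosen for a large difference between the same libraries makes such separation likely, and the share over all events is not given. The panels were processed as separate tables, so levels set across them carry that limit, and the introns below were picked for their size, with no test. CCDC114, which encodes a protein of ciliary dynein docking, had 80 and 72% in 293T and 14 to 35.5% in K562 libraries. DCXR, an enzyme of xylulose metabolism, had 39 and 55% in 293T and 5 to 14% in K562 libraries. ECM1, an extracellular matrix protein, had 28 and 12% in 293T and 58 to 92% in K562 libraries. PLCB2, a phospholipase C of blood cells, had 28 and 45% in 293T and 72.5 to 90% in K562 libraries, and PTGDS, a prostaglandin D synthase, 35 and 36% against 67 to 93%.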
